A study of Mus musculus with 6 samples.

Results

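Wild-type bone marrow-derived macrophages after 8 h of lipopolysaccharide (LPS) were compared with untreated wild-type macrophages, gene by gene, by MARS-seq, a plate-based single-cell RNA sequencing method that reads the 3′ ends of transcripts. The cells are the columns of the count matrix named for these 2 samples that held no more than 25000 unique molecular identifiers (UMIs, which count each captured transcript molecule once). They numbered 253 cells at 8 h and 238 untreated cells, 491 of the 1362 columns in the series. All genes were described, those that LPS is known to induce and those outside the inducible classes. Both samples were wild-type for the cohesin subunit gene Rad21 and carried 2 copies of the Rosa26 creERT2 allele, a tamoxifen-inducible Cre recombinase, on a mixed C57BL/6 129 strain background. Bone marrow cells were grown in L929-conditioned medium, a source of the growth factor M-CSF, and received 200 nM 4-hydroxy-tamoxifen on day 4, so that the untreated cells had been exposed to Cre recombinase and to tamoxifen as well. On day 7 the 8 h sample was given 10 ng/ml LPS. Each condition is 1 sample of sorted cells, the labels do not say how many mice it came from, and cells of 1 sample are not replicates. There is therefore no test between conditions. Intervals cover counting error only.

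LPS, a component of the outer membrane of Gram-negative bacteria, is sensed by macrophages through the receptor Tlr4 and its partners Cd14 and Ly96. The signal activates NF-kappaB and AP-1 factors, which switch on cytokine genes, and it activates the interferon regulatory factor Irf3, which leads to secreted type I interferon and through the interferon receptor to a secondary wave of interferon-stimulated genes. Macrophages grown with M-CSF can divide, and they take up particles through scavenger and Fc receptors and digest them in lysosomes. Uptake and digestion are resting functions carried by some of their most abundant transcripts. The study describes its mature macrophages as quiescent. From bulk RNA sequencing it reports that genes related to the cell cycle were downregulated after LPS.

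The 8 h cells held 1556036 UMIs in all and the untreated cells 1445275, with medians of 5780 and 5859.5 UMIs per cell. The median cell had 2515 detected genes at 8 h and 2739.5 when untreated, and 1901 and 2026 once 3800 UMIs had been drawn from each cell to even out depth (thinning, which dropped the 29 and 47 cells below that depth). Each of these 2 samples was spread over 8 library pools of 10 to 48 cells, and each pool held cells of 1 time point only, so that pool and treatment cannot be told apart. The pools are technical parts of a sample, and the range over them is given below as a description. The 2 h cells came from 7 pools, whose range is not given. The 12 macrophage markers, among them Csf1r, Adgre1 and Cd68, were all detected in both samples, with summed levels (CPM, UMIs per 1000000 UMIs of a sample) of 15793 CPM untreated and 10927 CPM at 8 h. Few listed markers of other cell types were in the matrix, 2 of 10 for neutrophils, 3 of 8 for dendritic cells, 3 of 7 for B cells, 2 of 8 for T or NK cells, 1 of 6 for mast cells, 3 of 6 for fibroblasts and none for erythroid cells. They summed to at most 62.3 CPM per list in either sample, the value of the B cell list in untreated cells (28.3 CPM at 8 h), and the neutrophil markers to 0 CPM untreated and 10.3 CPM at 8 h. The part of other cell types in the results was not tested.

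Of 18429 genes, 5131 had at least 100 UMIs over both samples and were compared by pooled CPM, the UMIs of a gene summed over all cells of a sample. At 8 h, 475 of them were at least 2-fold higher (9.26%) and 633 at least 2-fold lower (12.3%), counted with 1 UMI added to each sum. The induction was steep and the repression shallow. 80 genes were at least 16-fold higher and 5 at least 16-fold lower, and 128 were at least 8-fold higher against 29 at least 8-fold lower. The 475 higher genes went from 2.97% of all UMIs in untreated cells to 19.1% at 8 h, and the 633 lower genes from 8.86% to 3.22%. The median log2 ratio (8 h over untreated) of all compared genes was -0.17. Every CPM is a share of 1 total, and the other log2 ratios are to be read beside that value. Of the 5131 genes 3188 (62.1%) had a log2 ratio below 0. With log2 ratios centred on the median gene, 585 genes were higher and 443 lower, and with CPM taken over genes outside the inducible classes, 607 and 421. A gene scarce in 1 sample reaches 100 UMIs only through the other sample. Among genes of few UMIs the filter therefore favours those with large ratios, and counts of list members below share this limit. Each count of higher or lower list members is to be read beside the 9.26% and 12.3% of all compared genes.

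**Figure D1:**
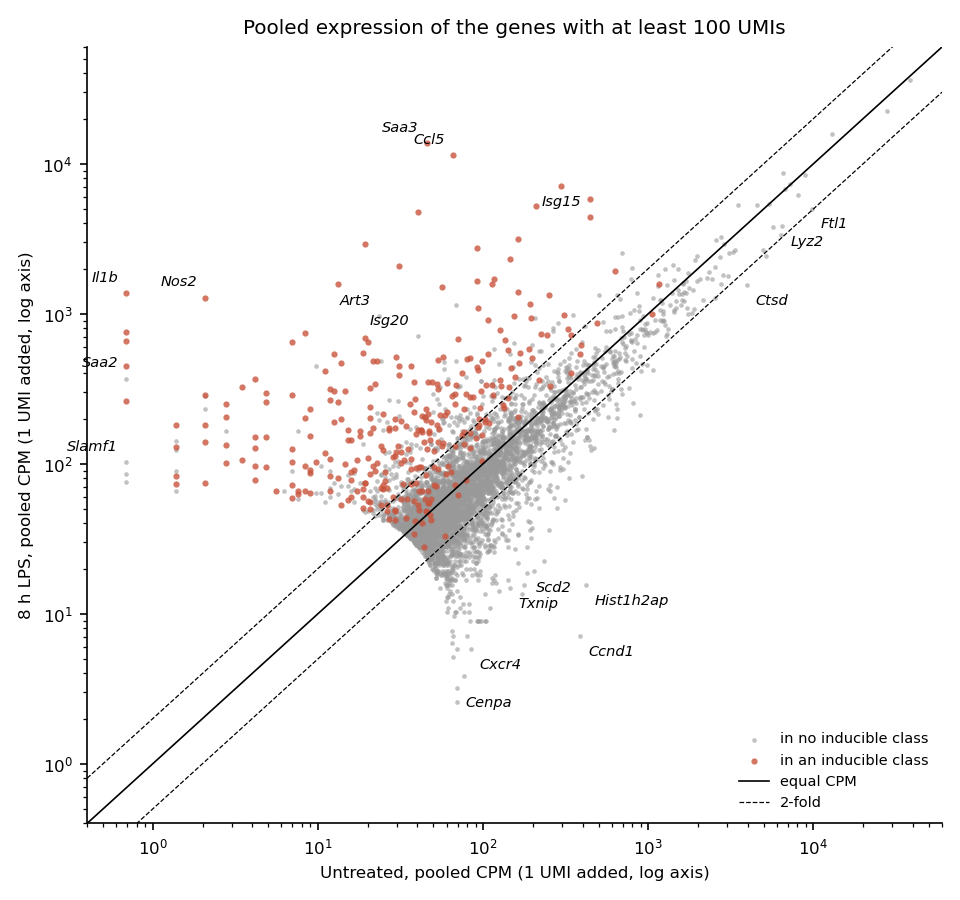
Pooled CPM of the 5131 compared genes in untreated cells (x axis) and at 8 h of LPS (y axis), both log axes with 1 UMI added. Red points are genes of the inducible classes, grey points all other genes, and dashed lines mark 2-fold. The points above the upper dashed line are red and grey in nearly equal number (239 and 236), and the 633 below the lower one are all grey.

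The study used classes of LPS-inducible genes that had been defined earlier on other macrophage data. Of the 303 compared genes in a class, 239 were at least 2-fold higher at 8 h and none was at least 2-fold lower. The other 236 higher genes were in no class, and 68 of these were at least 4-fold higher. These 236 genes went from 1.64% of UMIs in untreated cells to 5.39% at 8 h. In 341 of the 475 higher genes every 8 h pool lay above every untreated pool, against 372 of all 5131 genes (7.25%), and in 230 of the 633 lower genes every 8 h pool lay below every untreated pool, against 310 of all (6.04%). Of the 64 compared class members that were not 2-fold higher, Jun had the lowest log2 ratio (58.1 to 32.1 CPM, -0.84), with 45.9 CPM at 2 h. Genes named below to spell out a count of 9 or fewer, and Irak3, were chosen after their values were seen.

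Within the classes the steepest differences were in a set of cytokine, acute-phase and prostaglandin genes. Il1b, the fever cytokine interleukin-1 beta, had no UMI in 238 untreated cells and 2140 UMIs at 8 h, 1375 CPM, which is at least 663-fold higher (against a floor of 3 UMIs over the untreated sample, used for every such bound here). It was found in 92.5% of 8 h cells (87.5% after thinning). Lcn2, which binds bacterial siderophores, was at least 366-fold higher and Ptgs2, the inducible cyclooxygenase, at least 315-fold higher. Nos2, the nitric oxide synthase of activated macrophages, had 2 UMIs in untreated cells and 1991 at 8 h, a level 925-fold higher (95% counting interval 256 to 7640.3). At 2 h of LPS Lcn2 and Nos2 stood at 0.835 and 2.51 CPM, while the neutrophil chemokine gene Cxcl1 stood at 2294 CPM at 2 h and 444 CPM at 8 h. Cxcl1 and the endothelin gene Edn1 had no untreated UMI and were at least 214-fold and 127-fold higher.

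The largest gains in CPM were those of 2 class members. Saa3, a serum amyloid A protein made by macrophages, went from 45.0 to 13708 CPM, 305-fold higher (239 to 395), and made up 1.37% of all UMIs. The chemokine gene Ccl5 went from 65.04 to 11387 CPM, 175-fold higher (143 to 217), and was found in every 8 h cell. In the untreated sample 1 cell held 65 of the 94 Ccl5 UMIs. Saa3 had 65 untreated UMIs, of which the highest cell held 13. A single untreated pool held 28 of these and 74 of the 94 Ccl5 UMIs, and without it Saa3 was 489.8-fold and Ccl5 753-fold higher, so that both ratios rest on that pool. The other large gains in CPM were Ccl3 (297 to 7079.5 CPM), Ccl2 (443 to 5788 CPM), Ccl4 (207 to 5220.3 CPM), Cxcl10, Isg15, Ccl7, Irg1 and the ferritin heavy chain gene Fth1, which was 1.205-fold higher (1.18 to 1.23) from an already high 13006 CPM. The pools of Fth1 overlapped between the 2 samples. Ccl3 and Ccl4 overlap in the annotation, so their reads may be split uncertainly between them.

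Outside the classes the genes with the largest ratios included acute-phase genes, prosurvival genes and a myeloid growth factor. Saa2, another serum amyloid A gene, had no untreated UMI and 573 UMIs at 8 h (368 CPM), at least 177-fold higher. Its 8 h pools spanned 194 to 617 CPM with a median of 244 CPM. The near-identical Saa1 had 1 untreated UMI and 220 at 8 h, 204-fold higher (95% counting interval 36.3 to 8107), and reads of the 2 copies may be split uncertainly. Haptoglobin, encoded by Hp, binds free haemoglobin. It had no untreated UMI and 117 at 8 h, at least 36.2-fold higher, and Csf3, which encodes the neutrophil growth factor G-CSF, had none and 84.2 CPM, at least 40.6-fold higher. Both were unevenly spread over cells. Csf3 was detected in 22.9% of 8 h cells and the 13 cells with most UMIs held 49.6% of them, Hp in 24.1% with 48.7% held by 13 cells. The most uneven was Serpinb2, an inhibitor of plasminogen activators, at 0.692 CPM untreated and 89.3 CPM at 8 h, with 17.4% of cells positive and 13 cells holding 71.9% of its UMIs. Ccl5, by comparison, had 10.8% of its UMIs in the top 13 cells.

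Slamf1, a self-ligand receptor that also takes part in uptake of Gram-negative bacteria, had no untreated UMI and was at least 48.9-fold higher, and its 8 h pools spanned 46.9 to 176 CPM. The Bcl2a1 genes encode close copies of a prosurvival Bcl-2 relative and their reads may be split uncertainly. Bcl2a1a had 1.38 CPM untreated and 229 CPM at 8 h, 166-fold higher (95% counting interval 45.6 to 1374). Bcl2a1d had 8.99 CPM untreated and 447 CPM at 8 h, 49.7-fold higher (28.9 to 93.9), and Bcl2a1c had 1 untreated UMI and 101 at 8 h, 93.8-fold higher (16.5 to 3742). Mamld1 had 6.92 CPM untreated and 164 CPM at 8 h, 23.7-fold higher (12.7 to 49.99). Several other high ratios belong to gene models that overlap an inducible gene. Art3 (22.8 to 967 CPM) overlaps Cxcl10 and Cxcl11, Mir147 (2.08 to 165 CPM) overlaps AA467197, and Ifit1bl1 (0.692 to 123 CPM) overlaps Ifit1 and Ifit3b. These values may hold reads of the neighbours. Many other named genes also overlap a gene model in the matrix and share this limit, among them Il1b, Eif2ak2, Psma6, Cd274, Stat6, H2-T22, B2m, Igf1, Bcl2a1d, Slc15a3, Ccnd1, Ccnd2, Ccnd3, Cdk4, Txnip, Ctsb, Mrps6, Kcnab2, Slc37a2, Stab1, Npc1, Prdx5, Fabp3, Adam8, Sptssa and Elovl6. Gm20547, Gm29094 and Gm17268, 3 models without a match in the RefSeq gene table, went from 1.38 to 281 CPM, from 23.5 to 481 CPM and from 67.8 to 1148 CPM. Their overlap with other genes could not be looked up, so they may hold reads of genes already named.

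**Figure D2:**
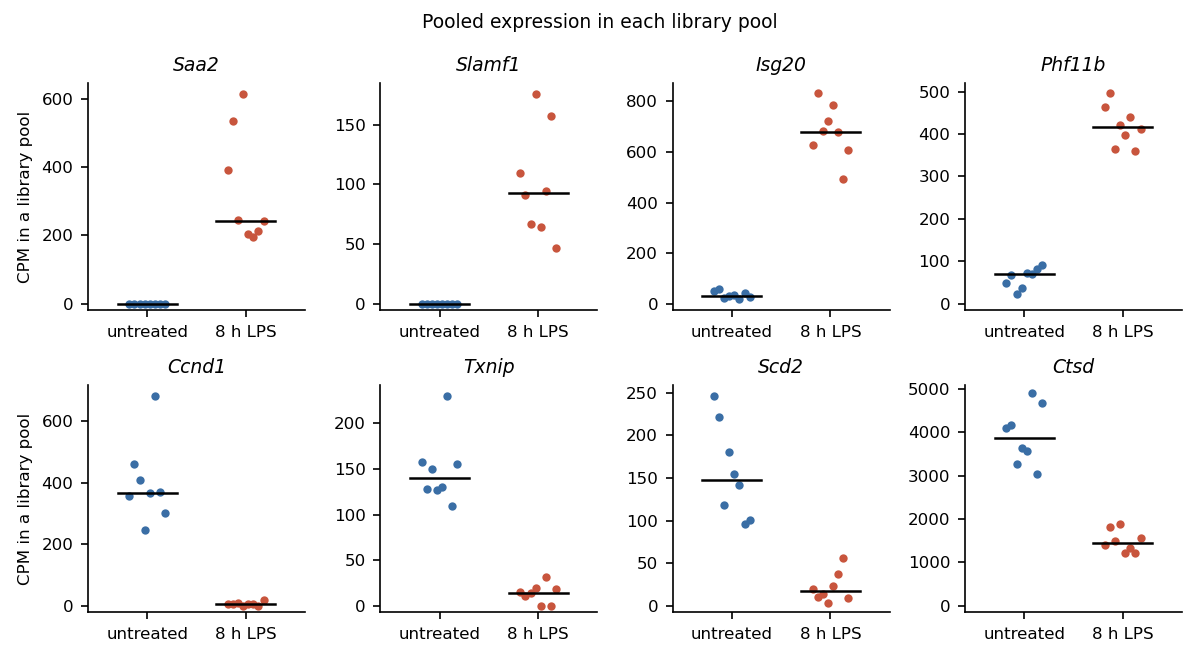
CPM of 8 genes outside the inducible classes in each library pool (points, 8 pools per condition), with the median of the pools as a line and linear axes from 0. The 8 genes were picked for display. For all of them the 8 h pools and the untreated pools do not overlap, while of all compared genes 7.25% had every 8 h pool above every untreated pool and 6.04% every 8 h pool below. Saa2 and Slamf1 are at 0 in every untreated pool.

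Of all lists with 7 or more compared genes, that of cytokines and chemokines had the highest median. Of 31 compared cytokine and chemokine genes 26 were at least 2-fold higher and 0 at least 2-fold lower (median log2 ratio 4.57, also with the 3 genes without untreated UMIs at their bound), and together they went from 3623 to 50264 CPM. All 253 cells at 8 h had a larger share of cytokine UMIs than the highest untreated cell. The members with the lowest ratios were Mif (193 to 151 CPM), Igf1, the insulin-like growth factor (426 to 289.8 CPM), and Tgfb1, which encodes the anti-inflammatory transforming growth factor beta 1 (157 to 82.9 CPM). Of 23 antimicrobial and acute-phase genes 16 were higher (median log2 ratio 4.01), while lysozyme, Lyz2, the most abundant untreated member, went from 6487 to 3822 CPM, 1.697-fold lower (1.64 to 1.75), and Lyz1 had a log2 ratio of -0.60.

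The feedback inhibitors of this signal were higher along with its targets. Of 18 genes for NF-kappaB subunits and feedback regulators 15 were at least 2-fold higher (median log2 ratio 3.21), led by Socs3 (2.77 to 323 CPM), which restrains cytokine receptor signalling, the phosphatase gene Dusp2 (1.38 to 73.9 CPM) and Tnip3 (55.4 to 1509.6 CPM). Nfkbia, the inhibitor IkappaB alpha, was the most abundant member (112 to 1569 CPM). Rela, the main activating subunit, had 51.9 CPM untreated and 64.9 CPM at 8 h, a log2 ratio of 0.32. Among 12 co-stimulatory and adhesion genes 7 were higher, with Slamf1, the activation antigen Cd69 (2.08 to 132 CPM) and Cd274, which encodes the checkpoint ligand PD-L1 (17.99 to 548 CPM), at the top, while Cd80, with fewer than 100 UMIs, went from 32.5 to 23.8 CPM. Of 11 JAK, STAT and SOCS genes 6 were higher and 1 was lower, Stat6, the factor downstream of interleukin-4 (67.1 to 27.6 CPM). The interleukin-4 receptor gene Il4ra went the other way, from 26.3 to 264 CPM, 10.05-fold higher (7.196 to 14.4).

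Interferon-stimulated genes had a lower median ratio with all members on 1 side. All 40 compared antiviral genes had a log2 ratio above 0, 29 of them at least 2-fold higher (median log2 ratio 1.73, 6467 to 22201 CPM in all). Rsad2, the antiviral enzyme viperin, went from 91.3 to 2722 CPM, and Isg20, an exonuclease gene outside the classes, from 39.4 to 704 CPM, 17.9-fold higher (13.7 to 23.7). Isg15, a ubiquitin-like protein and the most abundant member, went from 442 to 4396 CPM and had 892 CPM at 2 h. In 245 of 253 cells at 8 h the share of UMIs on these genes was above that of every untreated cell. Several members differed little. Ifitm3 went from 1518 to 1986 CPM, Eif2ak2, the kinase PKR, from 60.9 to 77.1 CPM, and Irf9 was at 61.6 and 63.0 CPM. Of 17 guanylate-binding and immunity-related GTPase genes 12 reached 100 UMIs. These 12 genes, which act on pathogen vacuoles, were all at least 2-fold higher (median log2 ratio 3.15). Members scarce in untreated cells could pass this filter only through their 8 h UMIs, so the count partly follows from it. The sum of all 17 genes, which needs no filter, went from 383 to 3302 CPM. Gbp2 was at 11.8 CPM untreated and 541 CPM at 8 h, and Irgm1 at 95.5 CPM untreated and 235 CPM at 8 h. Phf11b was outside the classes and went from 57.4 to 425 CPM, 7.41-fold higher (5.89 to 9.42), and lay between 21.5 and 91.7 CPM in the untreated pools and between 359 and 497 CPM in the 8 h pools. Slc15a3, a transporter of bacterial peptides across the endosome, went from 67.8 to 486 CPM, 7.17-fold higher (5.81 to 8.95).

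The 150 bases before the start sites of Isg15, Phf11b, Gbp2 and Irgm1 are shown because each holds the core of an interferon-stimulated response element, a sequence bound by factors downstream of the interferon receptor. Sequences are from RefSeq (GRCm38.p6), 5′ to 3′ on the strand of the gene, and capitals mark matches to its core, GAAA, any 2 bases and GAAA again, on either strand, where matches may overlap.
Isg15, chr4:156200819-156200968, minus strand: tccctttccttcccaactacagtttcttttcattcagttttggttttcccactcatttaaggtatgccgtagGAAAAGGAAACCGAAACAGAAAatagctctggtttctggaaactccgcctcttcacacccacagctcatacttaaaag
Phf11b, chr14:59341331-59341480, minus strand: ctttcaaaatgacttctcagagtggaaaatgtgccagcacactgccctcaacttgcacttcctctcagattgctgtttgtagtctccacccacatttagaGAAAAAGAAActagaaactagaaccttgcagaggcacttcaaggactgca
Gbp2, chr3:142620513-142620662, plus strand: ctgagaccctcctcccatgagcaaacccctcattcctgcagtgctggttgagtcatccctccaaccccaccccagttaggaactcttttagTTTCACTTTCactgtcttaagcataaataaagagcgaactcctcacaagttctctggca
Irgm1, chr11:48871421-48871570, minus strand: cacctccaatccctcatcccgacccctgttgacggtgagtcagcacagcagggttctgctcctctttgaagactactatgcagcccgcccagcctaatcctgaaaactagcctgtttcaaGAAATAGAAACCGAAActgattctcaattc
In Isg15 3 overlapping matches start 78 to 66 bases before the start site, and in Irgm1 2 overlapping matches start 30 and 24 bases before it. The core was in 3.44% of all 32851 promoter windows of 300 bases in the table. Shares of this core were not compared between gene groups, since windows were at hand for 77.5% of the antiviral list, 58.8% of the GTPase list and 68.2% of the compared genes. For the CCAAT box below, shares are given only for groups with windows for over 80% of their genes. A match describes the letters and does not show binding.

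Of 18 class I and immunoproteasome genes 7 were at least 2-fold higher (median log2 ratio 0.82), among them the transactivator gene Nlrc5 (13.1 to 52.1 CPM), H2-T22 (58.1 to 211 CPM) and the peptide transporter gene Tap2 (42.9 to 139 CPM), while the abundant H2-D1 had a log2 ratio of -0.03 and B2m of 0.22. The 31 genes of the constitutive proteasome had a median log2 ratio of 0.02, and 1 of them, Psma6, was at least 2-fold higher. Of 9 class II presentation genes in the matrix 3 reached 100 UMIs. Of these 3 genes 1 had a log2 ratio above 0 and 2 below 0 (median -0.28). None was at least 2-fold higher and 1 was at least 2-fold lower. Ifi30, the lysosomal thiol reductase of antigen processing, was lower (223 to 104 CPM). The sum of the listed class II genes, which needs no filter, went from 2468 to 2053 CPM, and its pools overlapped between the samples.

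The receptors of innate sensing did not move as 1 group. Of 12 compared sensing and adaptor genes 6 were at least 2-fold higher (Tlr3, Irak2, Tlr1, Cd14, Aoah and Tlr2) and 2 lower (Tlr13 and Cd180). Cd14 went from 629 to 1936 CPM and the double-stranded RNA receptor gene Tlr3 from 8.30 to 63.0 CPM. Tlr13, the receptor for bacterial ribosomal RNA, went down from 62.3 to 13.5 CPM, 4.61-fold lower (2.84 to 7.81), the Tlr4 relative Cd180 from 228 to 92.5 CPM, and the kinase gene Irak1 from 36.0 to 8.35 CPM, on fewer than 100 UMIs. The decoy kinase gene Irak3, by contrast, went from 9.69 to 95.8 CPM.

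**Figure D3:**
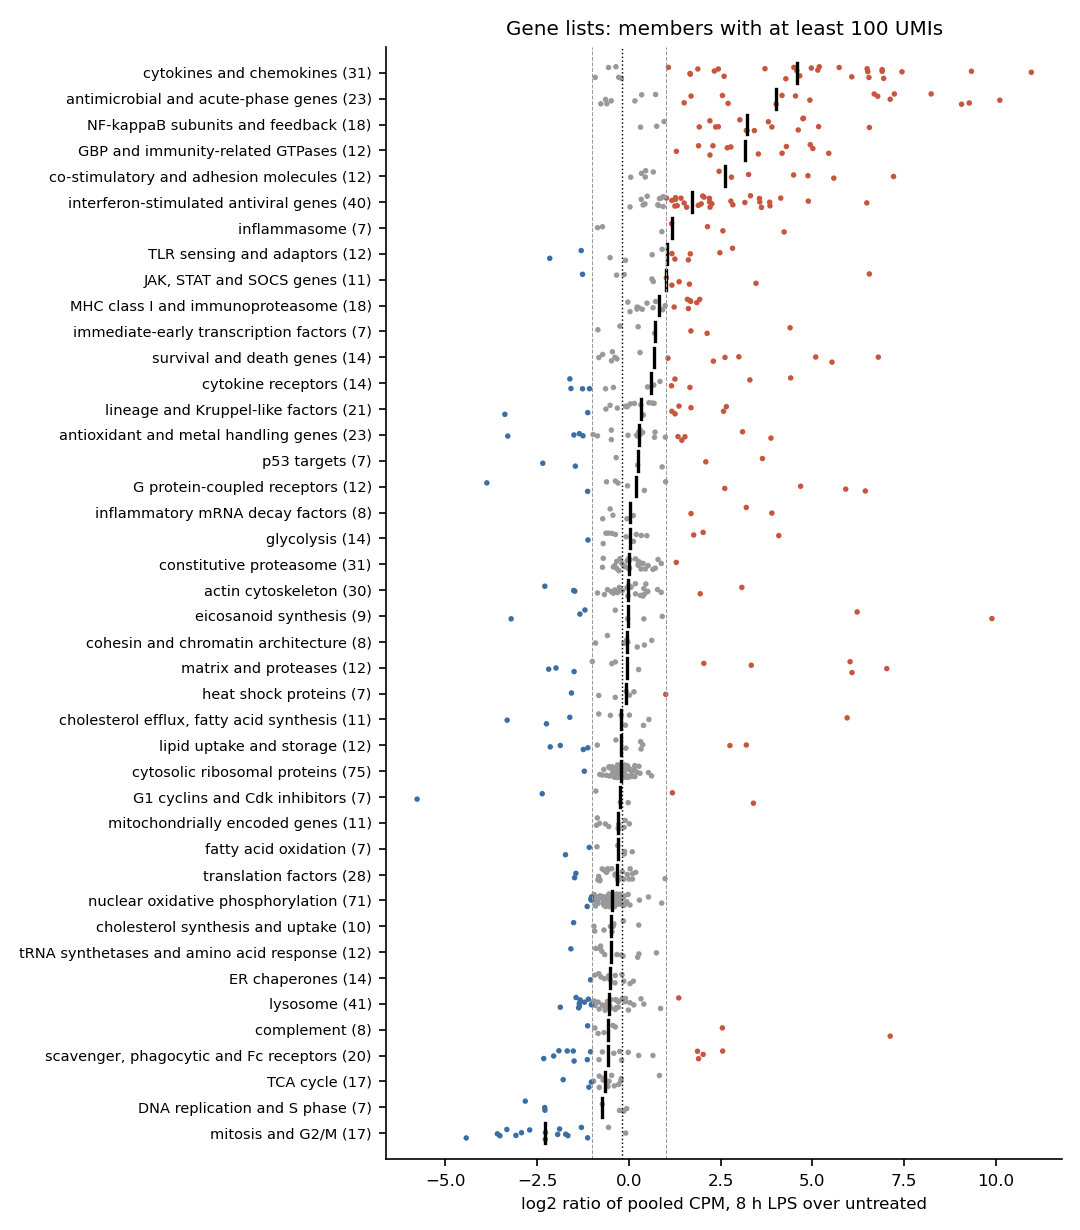
The log2 ratio of pooled CPM (8 h over untreated) of each member with at least 100 UMIs in the gene lists with 7 or more such members (families grouped by symbol are not shown), ordered by median (black bar), with the number of members in brackets. Red points are at least 2-fold higher and blue points at least 2-fold lower, and the dotted line is the median of all 5131 genes (-0.17). Cytokine genes lie furthest to the right (median 4.57) and mitosis genes furthest to the left (median -2.27).

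Cell cycle genes were among those with the lowest ratios, beside others such as Rasgrp3 and Cxcr4. Ccnd1, the D-type cyclin through which growth factors such as M-CSF drive entry into S phase, had the lowest ratio of all compared genes. It went from 555 UMIs (384 CPM) in untreated cells to 10 UMIs (6.43 CPM) at 8 h, 59.8-fold lower (95% counting interval 32.2 to 125), with 155 CPM at 2 h. The untreated pools lay between 246 and 682 CPM and the 8 h pools between 0 and 18.8 CPM. It was found in 73.9% of untreated cells and 3.56% of 8 h cells (64.9% and 1.79% after thinning). The other D-type cyclins had other values. Ccnd2, a member of an inducible class, went up from 6.23 to 72.0 CPM, 11.6-fold higher (5.88 to 25.9), and Ccnd3 was at 54.0 and 53.3 CPM. Their partner kinase gene Cdk4 went from 141 to 27.0 CPM, 5.23-fold lower (3.74 to 7.47), and the inhibitor gene Cdkn2d from 39.4 to 90.6 CPM.

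Genes of mitosis were lower almost throughout. Of 17 compared mitosis and G2/M genes 15 were at least 2-fold lower and none was higher (median log2 ratio -2.27). Some of them, such as Cdk1 and Cenpa, passed the filter of 100 UMIs mostly through their untreated UMIs. The sum of all 47 listed genes, which needs no filter, went from 3297 to 819 CPM. Its range over pools was 1979 to 3855 CPM untreated and 690.0 to 966 CPM at 8 h, and the pools did not overlap. Cenpa, the histone variant of centromeres, went from 68.5 to 2.57 CPM, 26.6-fold lower (10.1 to 99.7). Cdk1, the kinase that starts mitosis, went from 68.5 to 5.14 CPM, 13.3-fold lower (6.50 to 31.7), and Cdca3 from 79.6 to 6.43 CPM, 12.4-fold lower (6.49 to 26.5). Plk1, a mitotic kinase gene with fewer than 100 UMIs, had 62 UMIs untreated and 0 at 8 h. At 2 h Cdk1 was at 68.5 CPM and Cdca3 at 82.7 CPM, close to the untreated levels. The tubulin gene Tubb5, the most abundant member, went from 469.8 to 127 CPM. The 2 members that were less than 2-fold lower were H2afz (log2 ratio -0.09) and the spindle gene Tpx2 (-0.55).

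Replication-dependent histone genes, whose messages are made in S phase, were lower to a similar depth. Hist1h2ap went from 606 to 23 UMIs, 28.4-fold lower (18.7 to 45.1). It lay between 152 and 1084 CPM in the untreated pools and between 0 and 78.6 CPM in the 8 h pools. Hist1h1b went from 100 to 3 UMIs, 35.9-fold lower (11.9 to 177), Hist1h2aa from 171 to 12.9 CPM and Hist1h2af from 104 to 8.35 CPM. Hist1h2aa lay between 54.7 and 676 CPM in the untreated pools and between 6.27 and 28.1 CPM in the 8 h pools. Hist1h2af lay between 27.5 and 387 CPM and between 0 and 19.9 CPM. All 4 genes were highest in the same untreated pool, of 24 cells, so the size of their ratios depends on it. Over the family, grouped by symbol after the values were seen, 7 of 9 compared members were at least 2-fold lower (median log2 ratio -2.79). Histone genes are near-copies of each other and most of their messages lack a poly(A) tail, which makes their counts uncertain. H2afx, a histone variant that marks DNA breaks, went from 175 to 14.8 CPM, 11.8-fold lower (7.72 to 19.03). Its untreated pools spanned 62.0 to 633 CPM, with the same pool highest, and its 8 h pools 6.27 to 30.7 CPM. In the list for DNA replication 7 of 40 genes in the matrix reached 100 UMIs and 3 of these were at least 2-fold lower, Dnmt1, the maintenance methyltransferase (113 to 15.4 CPM), Mcm6, a subunit of the replicative helicase (68.5 to 13.5 CPM), and Rrm1 of ribonucleotide reductase (58.8 to 11.6 CPM). The list median was -0.72. It lay between -0.81 and -0.15 as single pools were left out, and between -1.82 and -0.51 under the other settings. The sum of the listed genes went from 1683 to 719 CPM. The most abundant member, Pcna, had a log2 ratio of -0.72.

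Counted by cell, 103 of 238 untreated cells (43.3%, 95% exact binomial interval 36.9% to 49.8%) held at least 2 UMIs of 13 mitotic genes, a subset chosen after the values were seen, against 38 of 253 cells at 8 h (15.02%, 10.9% to 20.03%). After thinning the shares were 30.4% and 9.82%. With at least 5 UMIs they were 19.3% of untreated cells and 1.19% at 8 h, or 3 cells. By the share of UMIs on the whole mitosis list, 37 of the 238 untreated cells lay above the highest of the 253 cells at 8 h.

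The stretches before the start sites of Cdk1, Cenpa, Cdca3 and Hist1h1b are shown because of their CCAAT boxes, the element bound by NF-Y and common in promoters of mitotic genes. Capitals mark CCAAT or its reverse complement ATTGG.
Cdk1, chr10:69352913-69353062, minus strand: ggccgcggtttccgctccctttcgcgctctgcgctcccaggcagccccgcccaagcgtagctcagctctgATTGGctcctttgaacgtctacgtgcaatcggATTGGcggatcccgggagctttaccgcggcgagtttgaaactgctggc
Cenpa, chr5:30666736-30666885, plus strand: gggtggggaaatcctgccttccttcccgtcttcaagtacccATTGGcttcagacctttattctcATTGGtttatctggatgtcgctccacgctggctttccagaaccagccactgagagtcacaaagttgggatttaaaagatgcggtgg
Cdca3, chr6:124830026-124830175, plus strand: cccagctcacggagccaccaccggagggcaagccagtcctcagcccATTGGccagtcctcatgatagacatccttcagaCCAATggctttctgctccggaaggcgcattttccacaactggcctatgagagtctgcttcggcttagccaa
Hist1h1b, chr13:21780626-21780775, minus strand: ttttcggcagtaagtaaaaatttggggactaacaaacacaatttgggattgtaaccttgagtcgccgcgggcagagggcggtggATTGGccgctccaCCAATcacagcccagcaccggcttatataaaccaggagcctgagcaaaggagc
Each stretch holds 2 boxes, at distances from 109 to 48 bases before the start site. Of the 47 mitosis genes 40 had a window of 300 bases in the table (85.1%), and 34 of these (85%) held the element, beside 41.1% of all 27025 genes with a window. Among the genes at least 4-fold lower, which include mitosis genes such as Cdk1 and Cenpa, it was in 43 of 82 (52.4%). Lists with fewer windows were left out, so the box is not shown to be particular to mitosis genes.

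Outside the cell cycle the genes with the lowest ratios had many different known roles. Rasgrp3, which loads Ras with GTP, went from 75.4 to 3.21 CPM, 23.5-fold lower (9.76 to 73.7). Cxcr4, the chemokine receptor that holds cells in bone marrow, went from 83.7 to 5.14 CPM, 16.3-fold lower (8.01 to 38.6), with 87.7 CPM at 2 h, and it lay between 13.7 and 116 CPM in the untreated pools and between 0 and 22.5 CPM in the 8 h pools, which overlap. Tmem86a had 65.04 CPM untreated and 4.50 CPM at 8 h, Arl11 101.7 CPM untreated and 8.35 CPM at 8 h, Rab3il1 96.9 CPM untreated and 8.35 CPM at 8 h, and the sugar phosphate transporter gene Slc37a2 94.1 CPM untreated and 8.35 CPM at 8 h. These 4 genes were 11.3-fold to 14.5-fold lower. Pdxk, which makes the active form of vitamin B6, went from 203 to 18.6 CPM, 10.9-fold lower (7.42 to 16.5), and the ubiquitin ligase gene Wwp1 from 233 to 21.9 CPM, 10.7-fold lower (7.49 to 15.7). Bhlhe41, a repressor linked to the resident macrophage state, went from 92.7 to 8.35 CPM, the potassium channel subunit gene Kcnab2 from 64.3 to 5.78 CPM. Txnip, an inhibitor of thioredoxin and of glucose uptake, was at 145 CPM untreated and at 14.1 CPM at 8 h, 10.2-fold lower (6.58 to 16.7), and already at 14.2 CPM at 2 h.

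Transcription factor genes also went both ways. Fos, with fewer than 100 UMIs, had 44 untreated UMIs and 1 at 8 h, while Ier3 and Junb were higher (13.8 to 304 CPM and 64.3 to 284 CPM). Of 21 lineage and Kruppel-like factors 6 were at least 2-fold higher (Cebpb, Irf1, Cebpd, Klf6, Ets2 and Klf7) and 2 lower (Bhlhe41 and Fli1). Cebpb, a factor of inflammatory macrophages and the most abundant member at 8 h, went from 154 to 971 CPM and Irf1 from 28.4 to 173 CPM, whereas Klf4 went from 32 to 3 UMIs and the lysosomal regulator gene Tfeb from 44 to 9 UMIs. Of 12 chemokine and other G protein-coupled receptor genes 4 were at least 2-fold higher (with Ccrl2 and Gpr84) and 2 lower (Cxcr4 and C5ar1), with the formyl peptide receptors Fpr2 (1.38 to 179 CPM) and Fpr1 (0.692 to 82.3 CPM) at the top. Rgs2, a brake on such receptors, went from 249.8 to 35.3 CPM, 7.07-fold lower (5.31 to 9.56). Rgs10 and Rgs19 were also at least 2-fold lower, 3 of 6 compared RGS genes, a family grouped after the values were seen. Of 14 cytokine receptor genes 5 were at least 2-fold higher, Tnfrsf1b (22.1 to 483 CPM), Il4ra, Csf2rb, Ifngr2 and Ifnar1. The 4 that were lower were Ifngr1 (66.4 to 21.9 CPM), Tgfbr1 (56.0 to 17.99 CPM), Tgfbr2 and Csf1r. Csf1r, the receptor for M-CSF, went from 311 to 129 CPM, 2.41-fold lower (2.03 to 2.85).

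Lysosome genes, many of them abundant, were lower by a small amount. Of 41 compared lysosome genes 9 were at least 2-fold lower and 1 was higher, Ctsc, beside 12.3% and 9.26% of all compared genes. A log2 ratio below 0 was found in 35 of the 41 (median -0.54), beside 62.1% of all compared genes. Together the listed genes went from 31894 to 20866 CPM, pools did not overlap (26578 to 38939 CPM and 18344 to 23158 CPM), and 245 of the 253 cells at 8 h lay below the untreated median. Ctsd, the protease cathepsin D, went from 3978 to 1542 CPM, 2.58-fold lower (2.46 to 2.71). Ctsb went from 5659.8 to 3783 CPM, 1.496-fold lower (1.45 to 1.55). Lipa, the lysosomal acid lipase, went from 452 to 123 CPM, 3.66-fold lower (3.11 to 4.32), and Gm2a, a cofactor of ganglioside breakdown, from 104 to 37.9 CPM. Lamp2 and Laptm4a had log2 ratios of 0.41 and 0.86. At 2 h Ctsd was at 2881 CPM, between its untreated and 8 h levels.

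Scavenger and Fc receptors went both ways. Of 20 compared genes 8 were at least 2-fold lower and 4 higher, beside 12.3% and 9.26% of all compared genes. The higher ones were the inhibitory Fc receptor gene Fcgr2b (49.1 to 292 CPM), the high-affinity receptor gene Fcgr1 (140.5 to 573 CPM), Fcgr4 and Msr1. Marco, a scavenger receptor gene with fewer than 100 UMIs, went from 1 to 45 UMIs. Cd300a (95.5 to 18.6 CPM), Stab1, a clearance receptor (331 to 79.7 CPM), and Scarb1, the receptor for high-density lipoprotein (115 to 30.2 CPM), had the lowest ratios. Stab1 was 4.16-fold lower (3.41 to 5.11). The mannose receptor gene Mrc1, a marker of alternative activation, went from 337 to 118 CPM, 2.87-fold lower (2.41 to 3.41). In the complement list Cfb and C3 were higher (1.38 to 287 CPM and 37.4 to 222 CPM), while C1qa, C1qc and C5ar1 had log2 ratios of -0.93, -0.84 and -1.12. Among proteases of the matrix, Mmp13 went from 0.692 to 179 CPM and Mmp14 from 1.38 to 139 CPM, and the sheddase gene Adam8 from 268 to 58.5 CPM.

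By amount the largest losses were in abundant genes of the untreated macrophage. Ftl1, the ferritin light chain, went from 9784 to 4981 CPM, 1.96-fold lower (1.91 to 2.02), while the heavy chain gene Fth1 went slightly the other way. Lgals3, a galectin abundant in macrophages, went from 5166 to 2429 CPM, 2.13-fold lower (2.05 to 2.21), and the secreted phosphoprotein gene Spp1 from 8022 to 6213 CPM. The other genes among the 10 largest losses in CPM were Lyz2, Ctsd, Ctsb, the mitochondrial mt-Rnr2 and mt-Nd1, and the models Gm22133 and Gm42418, the latter a ribosomal RNA repeat gene in RefSeq. Pools of the 2 samples overlapped for Spp1, Lyz2, mt-Rnr2, mt-Nd1 and Gm42418, and also for Fth1. In the list of metal handling and antioxidant genes 5 of 23 were higher, led by the metallothionein gene Mt2 (116 to 1698 CPM), Prdx5 (163 to 1396 CPM), Gsr, Slc39a14 and Txn1. The 4 that were lower were Gpx1, the transferrin receptor gene Tfrc (51.9 to 17.99 CPM) and catalase, Cat (89.3 to 34.7 CPM), and Txnip.

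Lipid genes went both ways. Scd2, a desaturase that makes monounsaturated fatty acids, went from 185 to 17.99 CPM, 10.3-fold lower (95% counting interval 6.94 to 15.7), and it lay between 95.6 and 247 CPM in the untreated pools and between 3.83 and 56.2 CPM in the 8 h pools. It had 71.8 CPM at 2 h. Of 11 compared genes for cholesterol efflux and fatty acid synthesis Scd2, Fads1 and the regulator gene Srebf1 were at least 2-fold lower. Fads1 went from 60.2 to 12.2 CPM and Elovl6, with fewer than 100 UMIs, from 27 to 4 UMIs. In the same list Ch25h, whose product 25-hydroxycholesterol restrains sterol synthesis, was the 1 gene at least 2-fold higher and went from 4.15 to 298 CPM, 71.7-fold higher (32.7 to 196). Of 10 compared cholesterol synthesis and uptake genes 9 had a log2 ratio below 0, beside 62.1% of all compared genes, with a list median of -0.48. Only 1 was at least 2-fold lower (Fdps, farnesyl diphosphate synthase, 99.6 to 34.7 CPM), beside 12.3% of all compared genes. Npc1, the cholesterol exporter of the lysosome, went from 87.2 to 19.3 CPM, 4.52-fold lower (3.02 to 6.98), and Fabp5 from 1836 to 1012 CPM, while Fabp3 and Acsl1 were higher (17.3 to 165 CPM and 24.2 to 167 CPM). Of 12 genes for lipid uptake and storage Npc1, Lipa, Soat1 and Lpl were at least 2-fold lower, and Fabp3 and Acsl1 were the 2 higher ones. Among eicosanoid genes Hpgd, which breaks down prostaglandins, went from 82.3 to 8.35 CPM, 9.86-fold lower (5.55 to 19.1), beside the gain in Ptgs2 and in the prostaglandin E synthase gene Ptges (2.08 to 205 CPM). Alox5, of leukotriene synthesis, went from 29 to 6 UMIs.

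Genes of oxidative metabolism had log2 ratios mostly a little below 0. Of 71 nuclear-encoded genes of oxidative phosphorylation 67 had a log2 ratio below 0 and 4 were at least 2-fold lower (median -0.46), beside 62.1% and 12.3% of all compared genes, for a sum of 15509.9 CPM untreated and 11474 CPM at 8 h. The 4 were the complex I genes Ndufb10 (log2 ratio -1.14), Ndufs7 (-1.03), Ndufv3 (-1.03) and Ndufb2 (-1.02), and Cycs, for cytochrome c, had the highest log2 ratio (0.89). In 239 of the 253 cells at 8 h the share of UMIs on the list lay below the untreated median. Of 17 genes of the TCA cycle 16 were below 0 (median -0.65), and Idh1, Idh2 and Idh3g, all isocitrate dehydrogenase genes, were at least 2-fold lower. Idh1, which makes NADPH in the cytosol, went from 106 to 30.2 CPM, 3.50-fold lower (2.51 to 4.97). The 11 compared mitochondrially encoded genes had a median of -0.29, which moved between -0.65 and -0.15 as single pools were left out, and their sums over pools overlapped widely (9469 to 34489 CPM untreated and 9243 to 34979 CPM at 8 h). Mitochondrial ribosomal protein genes, grouped by symbol after the values were seen, were at least 2-fold lower in 16 of 43 (median -0.74), and 1, Mrpl52, was higher. Mrps6 had the lowest ratio, from 191 to 35.3 CPM, 5.40-fold lower (4.03 to 7.35). Cytosolic ribosomal protein genes were at least 2-fold lower in 1 of 75 (Rps27l), with a median of -0.22, near that of all genes.

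Glycolysis differed by step. Pfkfb3, which makes the activator of phosphofructokinase, went from 8.30 to 152 CPM, 18.3-fold higher (10.3 to 35.9), the glucose transporter gene Slc2a1 from 15.9 to 66.8 CPM and the hexokinase gene Hk2 from 10.4 to 38.6 CPM on fewer than 100 UMIs. Gpi1 and the abundant Pkm had log2 ratios of -1.11 and -0.70, and the median of 14 genes was 0.03, with a sign that turned under other settings (-0.35 to 0.23). Pfkfb3, Slc2a1 and Hif1a were the 3 that were at least 2-fold higher, and Gpi1 the 1 that was lower. In the pentose phosphate pathway Taldo1 (-1.29) and Pgls (-1.15) were at least 2-fold lower. Lists with medians near 0 included the actin cytoskeleton (30 genes, -0.01), heat shock proteins (7 genes, -0.07) and cohesin with other architectural factors (8 genes, -0.04), in which Rad21 had 64.3 CPM untreated and 34.1 CPM at 8 h (log2 ratio -0.91).

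**Figure D4:**
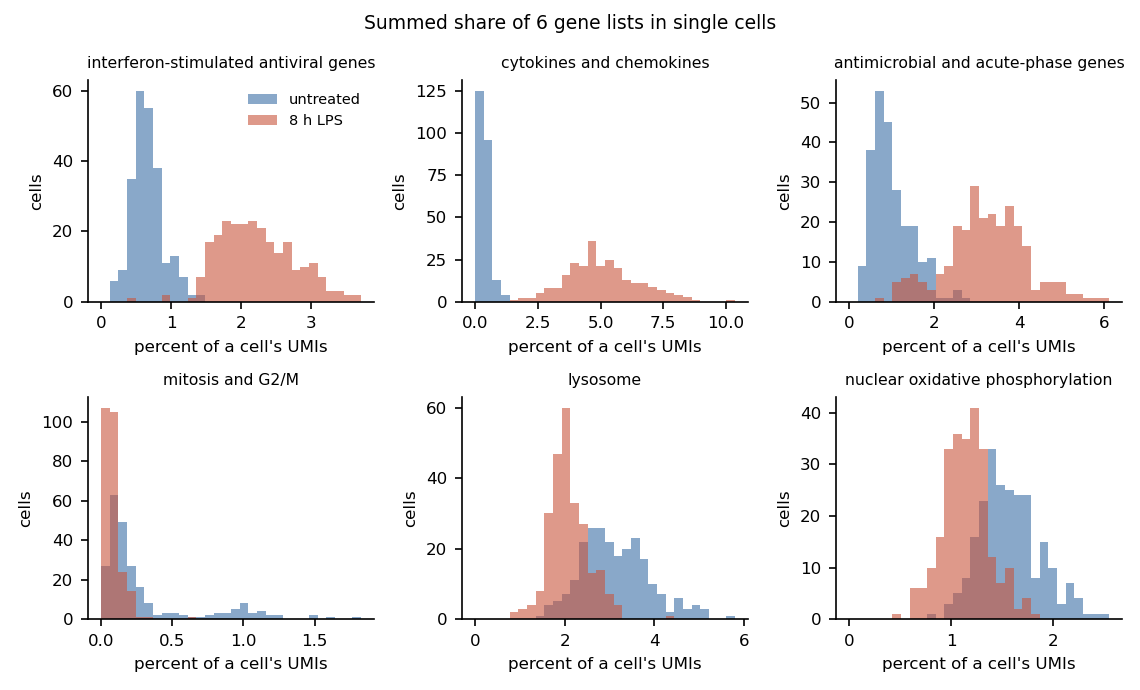
Histograms over cells of the percent of each cell's UMIs that fell on 6 gene lists, for 238 untreated cells (blue) and 253 cells at 8 h of LPS (red). The 2 samples do not overlap for cytokines and chemokines, overlap at the edges for interferon-stimulated genes, and overlap broadly for lysosome and oxidative phosphorylation genes, while the untreated tail of mitosis genes above 0.660% is missing at 8 h.

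Differences in pooled CPM came with differences in the share of cells in which a gene was detected. Among the 20 genes outside the classes with the largest differences in share, 10 in each direction, the most negative difference was that of Ccnd1. Pdxk was found in 64.3% of untreated cells and 10.3% of 8 h cells (48.7% and 7.14% after thinning), and Sptssa, of sphingolipid synthesis, in 76.5% of untreated cells and 22.5% of 8 h cells (65.4% and 16.1% after thinning). Pmp22 was found in 79.0% of untreated cells and 27.7% of 8 h cells (63.9% and 17.4% after thinning), and Txnip in 53.8% of untreated cells and 7.51% of 8 h cells (40.8% and 4.02% after thinning). The largest gain was that of Bcl2a1d, found in 5.04% of untreated cells and 83.4% of 8 h cells (4.19% and 72.8% after thinning), followed by Saa2 in 0% of untreated cells and 76.3% of 8 h cells (0% and 64.3% after thinning). With no untreated cell positive, a count of 0 in 238 cells leaves room for at most 1.26% of cells holding Saa2 UMIs (taken as 3 counts in 238 cells). Isg20 was found in 18.1% of untreated cells and 94.1% of 8 h cells (14.1% and 89.7% after thinning). For all 20 genes the thinned shares differed in the same direction. Where a gene had UMIs in both samples, the log2 ratio of mean CPM per cell was divided into a part for the share of positive cells and a part for the level in positive cells. Of these 2 parts the one for the share was larger in 405 of 466 higher genes and in 582 of 633 lower genes. A positive cell holds 1 UMI or more, which bounds the level part of scarce genes and favours the share part. The same count over all compared genes is not given here, so these counts do not set the called genes apart from the rest. Ccnd1 had a mean of 3.15 UMIs per positive untreated cell and 1.11 per positive cell at 8 h, and Ctsd, detected in every cell of both samples, had 24.2 and 9.48.

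**Figure D5:**
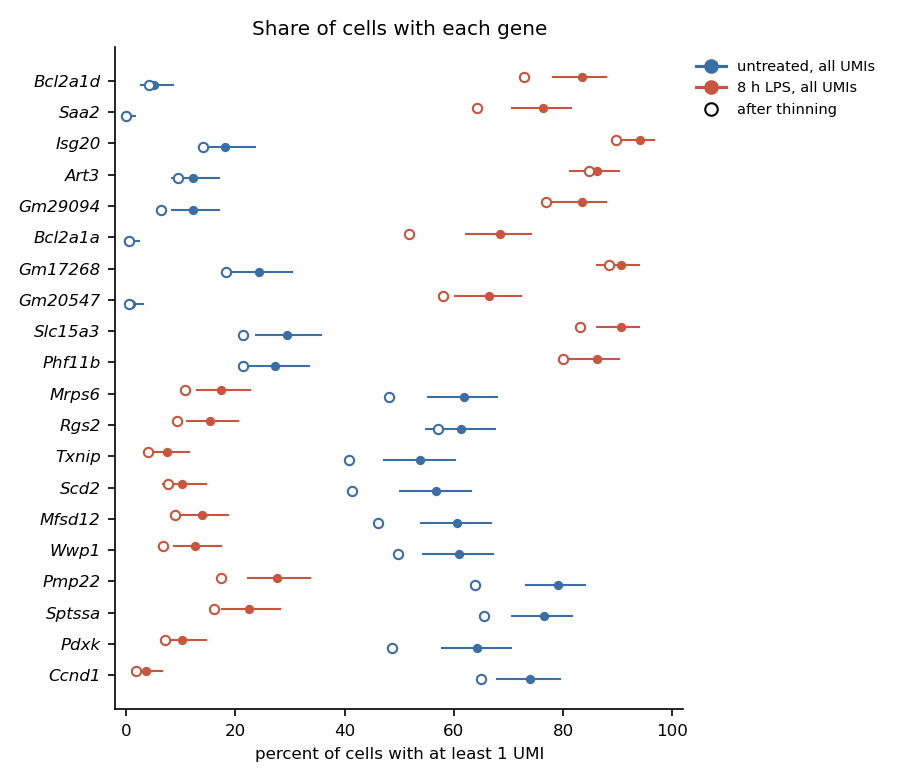
Percent of cells with at least 1 UMI (x axis) for the 20 genes outside the inducible classes with the largest differences in share, untreated (blue) and at 8 h (red). Filled points use all UMIs with 95% exact binomial intervals, and open points are the shares after thinning to 3800 UMIs. The genes were chosen for these differences, so the gaps between the colours are a description, and the intervals cover counting error only.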

How the data were processed

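Per the study's methods, cells were sorted into plates and sequenced by MARS-seq, with cells indexed in 2 steps, by well and by pool. The authors mapped reads to GRCm38.p4, kept wells with at most 15% of reads from spike-ins and at least 60% of reads mapped, and merged UMIs of a gene that differed by no more than 2 edits. The deposited values are raw UMI counts per gene and cell. The methods also name a filter on genes expressed in under 5% of cells, and the matrix held 6708 genes found in under 5% of the cells compared here. The 680 columns of Rad21-deficient cells were not used. Columns above 25000 UMIs were left out (4 at 8 h, 1 untreated and 5 at 2 h). Counts were summed per sample as CPM, and log2 ratios were taken with 1 UMI added. Genes with at least 100 UMIs over both samples were compared. Counting intervals were exact conditional binomial (ratios) and Clopper-Pearson (shares), both at 95% (Python 3.11.15, numpy 2.4.6, pandas 2.3.3, scipy 1.17.1), and the scripts were tested on simulated data. PCR duplicates were removed by UMI, and intervals cover counting error only. Clustering and doublet calling were not applied, beyond the UMI limit. Both conditions are 1 sample each, so no test was made.

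Genes were named by rule: outside the inducible classes the 15 highest and 20 lowest ratios, inside them the 8 highest and 5 lowest, the 10 largest differences in CPM and in share each way, and per list the 3 highest, the 3 lowest and the most abundant gene among those with at least 30 UMIs. Not all are described, and some items are not reported here. The comparison, the gene lists and the rules were chosen with earlier results of these data known. The families named by symbol and the subset of 13 mitotic genes were added after values were seen. Promoters came from the RefSeq table of GRCm38.p6. Alternatives were another filter, another pseudocount, other scalings, equal weight of cells or pools, thinning, keeping the largest cells, and leaving out each pool in turn.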

Additional observations from a re-analysis of the deposited data

How the results depend on the processing

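The counts of higher and lower genes depended on the filter and on the scaling. With a minimum of 30 UMIs 748 genes were at least 2-fold higher and 1916 lower, and with all genes of 1 UMI or more 1372 and 3820, so that more genes of few UMIs were counted. With CPM over genes outside the inducible classes, a shift of 0.20 in every log2 ratio, 607 were higher and 421 lower (59.0% of called genes higher, against 42.9%), and with centring on the median gene 56.9% were higher. Leaving out 1 pool in turn gave 437 to 478 higher and 476 to 625 lower genes and an all-gene median between -0.19 and -0.11. The list medians then lay between 4.48 and 4.62 for cytokines, 1.64 and 1.94 for interferon-stimulated genes, -2.31 and -1.89 for mitosis, and -0.58 and -0.50 for the lysosome. Of 222 named genes at least 2-fold apart, 19 came under 2-fold in some alternative, and none turned sign. No paired analysis was possible because each condition is 1 sample and no test was made. Precision was limited by the number of UMIs of scarce genes.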
